A study of Saccharomyces cerevisiae with 5 samples.

Results

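The genes described here encode the machinery of RNA polymerases I and III in budding yeast: the subunits of both enzymes, the factor Rrn3 and the core factor proteins that start polymerase I, and the factors TFIIIC and TFIIIB that start polymerase III. They were chosen by name, as the probe sets whose platform gene symbol is one of 35 listed genes, with the brightest probe set kept for each gene. All 35 were found and all 35 passed the filter on dim probe sets, out of 4950 genes with a probe set of their own among those tested. RNA was measured on 5 single-colour arrays: 3 from a strain in which VTS1 was deleted in the BMA64 background, and 2 from BMA64 itself, a laboratory strain of the W303 type, as wild type. Both strains were grown at steady state in SD medium, and the comparison asks which transcripts change when Vts1 is missing. Vts1 is an RNA-binding protein of the Smaug family that promotes the decay of mRNAs carrying its hairpin. The labels name neither the marker used for the deletion nor whether arrays of one group came from separate cultures or clones, so the p-values rest on array-to-array scatter that could be purely technical.

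RNA polymerase I makes a single transcript, the precursor of the large ribosomal RNAs, and RNA polymerase III makes tRNAs, the 5S ribosomal RNA and a few other small RNAs such as the RNA of RNase P. Both enzymes share the RPC40 and RPC19 subunits with each other and a further set with RNA polymerase II, which makes mRNA. In yeast the genes of both polymerases are known to be expressed with the ribosome assembly genes and to follow growth rate, and the promoter element PAC was named after polymerases A and C, the older names of polymerases I and III.

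VTS1 itself checked the labels. Its signal was 19, 17.8 and 55 on the deletion arrays, against 4952.3 and 5079.9 on the wild type arrays, at least 33.4-fold lower in the deletion (limma adjusted p = 8.46e-09). Across probe sets, which are not independent replicates, arrays of one group had r = 0.981 to 0.990 in log2 signal, and arrays of different groups 0.960 to 0.969. For actin, the 3' probe set divided by the 5' one, a sign of RNA integrity, gave 1.51, 1.35 and 1.25 on the deletion arrays and 1.34 and 1.17 on the wild type arrays. The same ratio for SRB4 was 3.02, 3.64 and 5.32 on the deletion arrays, highest on deletion replicate 3, and 3.39 and 2.42 on the wild type arrays, and for the TATA-binding protein it was 2.37 to 2.79 in the deletion and 2.70 to 2.82 in the wild type. All 35 genes lay above the background level of every array.

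In the deletion strain RRN3 fell to about 50% of its wild type level, and 2 of 23 polymerase subunit genes, RPO31 and RPA43, fell by less. None of the 8 TFIIIC and TFIIIB genes had a call in limma. Of the 35 genes, 3 fell and none rose (limma, two-sided, adjusted p under 0.05 over all 6294 probe sets tested). Of all probe sets tested, 3.05% fell and 4.39% rose by the same rule. At an unadjusted p under 0.05, 11 of the 35 were lower and 1, TFC4, was higher, against 696 (11.1%) lower and 648 higher among all 6294 probe sets tested. Only 1 member passed when wild type replicate 2 or deletion replicate 2 was left out (RRN3 both times), and RPO31 and RPA43 were also not called without wild type replicate 1. The 3 deletion arrays lay below both wild type arrays for 15 of the 35 genes and above both for 2. Among all probe sets tested these shares were 21.7% and 16.8%. The median log2 change (deletion minus wild type) was -0.24 over the 35 genes and -0.04 over all probe sets tested.

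**Figure D1:**
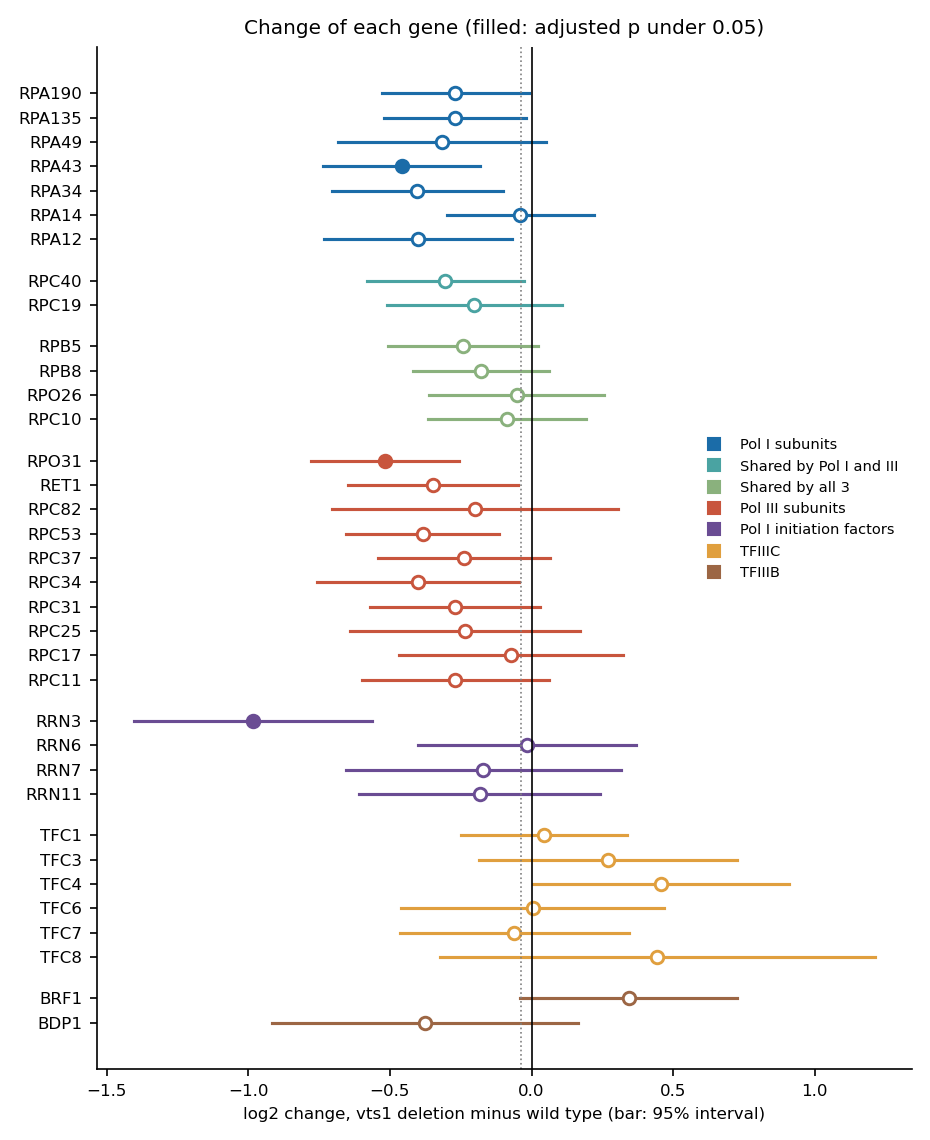
Log2 change of each gene, vts1 deletion minus wild type, with its 95% interval from the limma fit (n = 3 and 2 arrays). Genes are grouped and coloured by role, filled circles passed the adjusted p threshold of 0.05, the solid line marks 0 and the dotted line the median of all probe sets tested. All 23 subunits lie left of 0, and RRN3 lies farthest left at -0.98. Of the 8 TFIIIC and TFIIIB genes, 6 lie right of 0, with TFC1 and TFC6 close to it.

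The 7 subunits found only in polymerase I had a median log2 change of -0.32, with 1 past the threshold. RPA43, whose protein forms the stalk of the enzyme together with the RPA14 protein and is the contact for Rrn3, had a signal of 3548.0, 3039.5 and 3308.6 on the deletion arrays, against 4385.2 and 4666.3 on the wild type arrays. The groups did not overlap, and the log2 change was -0.46 ± 0.13 (SE, adjusted p = 0.0494), a call just inside the threshold and lost in 8 of 14 alternatives. RPA14 showed no such difference, with 8527.6, 7530.6 and 7732.6 in the deletion against 7779.6 and 8517.9 in the wild type and a 95% interval of its log2 change from -0.30 to 0.22.

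The other polymerase I subunits lay between these. RPA190 and RPA135 encode the largest and the second largest subunit, which together form the active centre. RPA190 had 11521.1, 10345.6 and 9910.1 in the deletion against 12209.2 and 13280.9 in the wild type, and RPA135 had 10937.6, 10459.4 and 10098.8 against 11988.3 and 13377.9. For both genes every deletion array was below every wild type array, with log2 changes of -0.27 ± 0.12 (adjusted p = 0.220 for RPA190 and 0.201 for RPA135). RPA49 and RPA34 encode a pair of subunits related to the polymerase II factor TFIIF. RPA34 had 4691.7, 6006.9 and 6012.5 in the deletion against 7024.4 and 7632.4 in the wild type (log2 change -0.40 ± 0.14, adjusted p = 0.113). RPA49 had 4458.1, 5381.7 and 5619.1 against 5246.2 and 7768.3, so that its groups overlapped through wild type replicate 1 (log2 change -0.32 ± 0.17, adjusted p = 0.317). RPA12, the subunit of RNA cleavage, had 4261.4, 4014.2 and 4920.3 in the deletion against 4967.5 and 6739.2 in the wild type, a log2 change of -0.40 ± 0.15 (adjusted p = 0.152). For RPA49 and RPA12 the size of the difference depended on the wild type array used: without wild type replicate 1 the log2 changes were -0.60 and -0.62 (adjusted p = 0.0470 and 0.0362). Without wild type replicate 2 they were -0.03 for RPA49 and -0.18 for RPA12. All 7 of these genes were brighter on wild type replicate 2 than on wild type replicate 1, as were 52.4% of all probe sets tested.

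RPA190 and RPA43 are neighbours on the chromosome, with no protein-coding gene between them in the reference gene table, and their locus names (YOR341W and YOR340C) place them on opposite strands, reading away from each other. No other members were direct neighbours. RPA190 also had 6 dimmer probe sets, some of a type (_s_at) that Affymetrix gave to probes shared by similar sequences. Of these, 5 passed the filter, with log2 changes of -0.04 to -0.49 and no call (adjusted p of 0.271 to 0.924).

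None of the 6 subunits shared between enzymes had a call in limma, and none had an unadjusted p under 0.05 except RPC40. RPC40 and RPC19 form the pair related to the alpha subunits of the bacterial enzyme and occur in polymerases I and III. RPC40 had 4384.0, 3688.3 and 4217.2 in the deletion against 4940.3 and 5155.9 in the wild type, without overlap (log2 change -0.30 ± 0.13, adjusted p = 0.192). RPC19 had 6327.4, 7270.6 and 7887.1 against 7307.6 and 9204.9, with overlap (log2 change -0.20 ± 0.14, adjusted p = 0.455, and -0.37 without wild type replicate 1 or -0.04 without wild type replicate 2). RPB5, RPB8, RPO26 and RPC10 are also part of polymerase II. Their log2 changes ranged from -0.24 ± 0.12 for RPB5 to -0.05 ± 0.14 for RPO26, with a median of -0.13. RPB8, with 14780.6, 14894.5 and 14233.7 in the deletion against 16931.0 and 16214.4 in the wild type, and RPB5, with 6720.0, 5743.8 and 6566.1 against 7489.6 and 7479.1, had no overlap between groups.

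Of the 10 subunits found only in polymerase III, 1 fell, and the median log2 change was -0.27. RPO31, the gene of the largest subunit, had 3939.8, 4039.7 and 4357.0 on the deletion arrays, against 5953.8 and 5804.8 on the wild type arrays. The gap between the groups was wider than the spread within either, and the log2 change was -0.52 ± 0.12 (adjusted p = 0.0208), about 30% lower. RET1, the gene of the second largest subunit, had 6429.6, 6807.0 and 7607.6 in the deletion against 7790.4 and 9998.0 in the wild type (log2 change -0.35 ± 0.14, adjusted p = 0.167). Its groups did not overlap, but the log2 change was -0.53 without wild type replicate 1 and -0.17 without wild type replicate 2.

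RPC53 and RPC37 encode the TFIIF-related pair of polymerase III, which acts in termination and reinitiation. RPC53 had 2708.4, 2731.8 and 2733.9 in the deletion against 3490.7 and 3626.6 in the wild type, the smallest scatter among deletion arrays of all 35 genes in SD (14.2). Its log2 change of -0.38 ± 0.12 had an adjusted p of 0.0881. RPC37 had 2134.4, 2275.8 and 2429.6 against 2465.2 and 2923.1 (log2 change -0.24 ± 0.14, adjusted p = 0.364, and -0.36 or -0.11 without wild type replicate 1 or 2). RPC82, RPC34 and RPC31 form a trimer needed for initiation. RPC34 had 922.2, 810.2 and 862.2 in the deletion against 1116.4 and 1163.2 in the wild type, and RPC31 had 1901.7, 2194.7 and 2062.5 against 2352.1 and 2600.5, both without overlap (log2 changes -0.40 ± 0.16 and -0.27 ± 0.14, adjusted p = 0.181 and 0.288). RPC82 had 837.8, 1232.2 and 1170.3 against 1571.0 and 951.6. Its wild type arrays differed more from each other than the groups did, and its log2 change of -0.20 ± 0.23 turned to 0.16 without wild type replicate 1 and was -0.56 without wild type replicate 2. The stalk genes RPC25 and RPC17 and the RNA cleavage subunit gene RPC11 had overlapping groups and log2 changes of -0.24 ± 0.19, -0.07 ± 0.18 and -0.27 ± 0.15. That of RPC25 was -0.38 without wild type replicate 1 and -0.09 without wild type replicate 2.

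**Figure D2:**
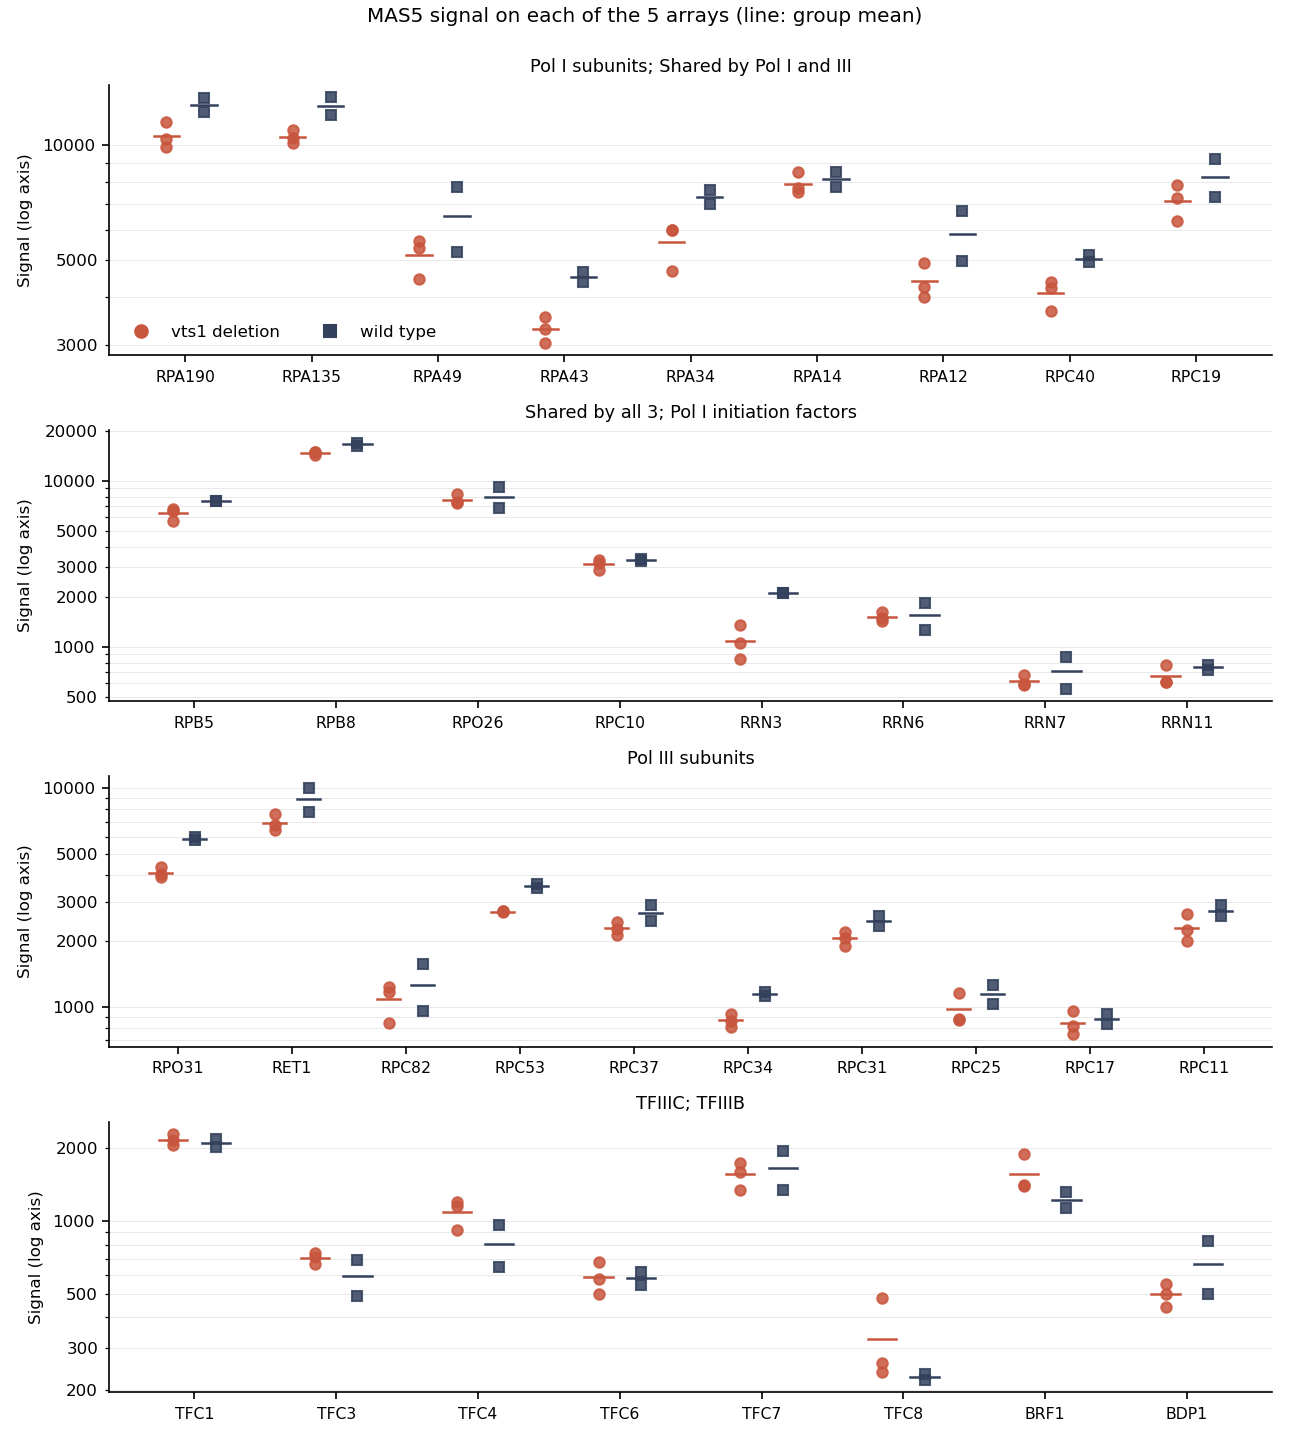
MAS5 signal of each gene on each array (log axis), with circles for the 3 deletion arrays, squares for the 2 wild type arrays and a line at each group mean. Heights are comparable between groups of one gene and not between genes, since each gene has its own probes. Deletion and wild type separate clearly for RPA43, RPO31, RPC53 and RRN3. The wild type arrays of several genes lie far apart, among them RPA49, RPA12, RPC82, RRN6, RRN7, TFC4, TFC7 and BDP1.

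All 23 polymerase subunits had a log2 change below 0, as had 54.8% of all probe sets tested. The deletion arrays lay below both wild type arrays for 14 of the 23, against 21.7% of all probe sets tested. Of the 23, 2 passed the threshold, against 3.05% called lower among all probe sets tested. The sign of RPO26, RPC82 and RPC17 turned without wild type replicate 1, that of RPA14 without wild type replicate 2 and that of RPC17 without deletion replicate 1. The other subunits stayed below 0 in all alternatives run. On single arrays, the median subunit lay 0.35, 0.29 and 0.21 (log2) below its wild type mean on deletion replicates 1, 2 and 3. The wild type arrays lay 0.04 below and 0.04 above that mean. These 2 values are equal and opposite by construction, since the mean is that of the same 2 arrays. The subunit genes are not independent of each other, and their common direction carries no p-value here.

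Several polymerase I subunits have a relative in polymerase III, and the values of related subunits are given side by side. RPO31 fell with a log2 change of -0.52, and its relative RPA190 had one of -0.27 and no call. For the second largest subunits the values were -0.27 (RPA135) and -0.35 (RET1), for the cleavage subunits -0.40 (RPA12) and -0.27 (RPC11). Of the stalk genes, RPA43 fell with -0.46 and RPC25 had -0.24, while the other stalk genes, RPA14 and RPC17, both related to Rpb4 of polymerase II, had -0.04 and -0.07, the values nearest to 0 among the subunits found only in polymerase I and only in polymerase III. The 95% intervals of the 2 genes overlapped in each of the 7 pairs, and the differences within pairs were not tested.

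**Figure D3:**
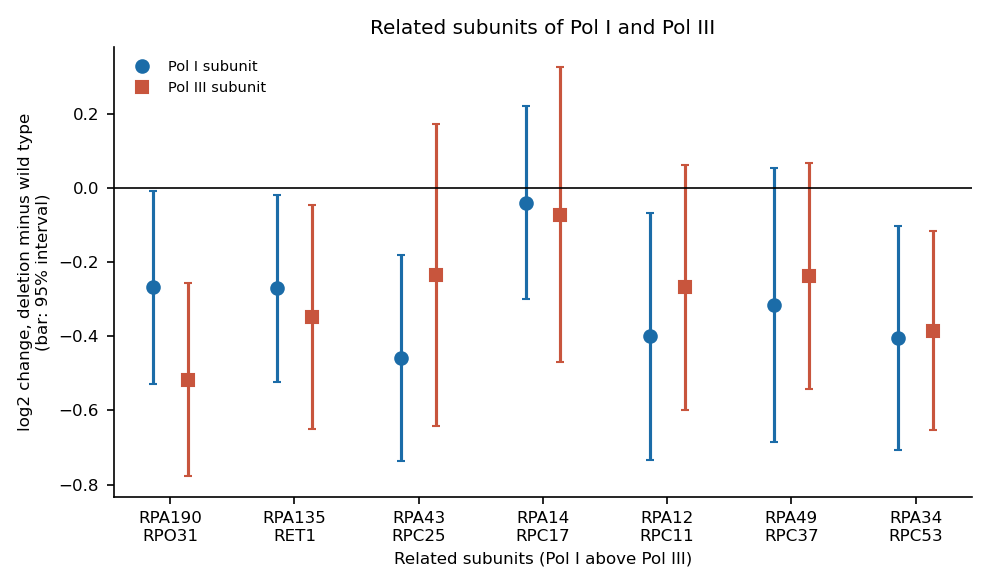
Log2 change, deletion minus wild type, of 7 polymerase I subunit genes (circles) beside related polymerase III subunit genes (squares), with 95% intervals from the limma fit. The last 2 pairs set the members of the TFIIF-related dimers side by side, and the intervals overlap in every pair.

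Among the factors that start polymerase I, RRN3 fell and the core factor genes had no call. Rrn3 binds polymerase I and makes it competent to initiate, and its activity follows growth conditions. RRN3 had a signal of 837.8, 1050.2 and 1357.3 on the deletion arrays, against 2101.3 and 2096.4 on the wild type arrays. The wild type arrays were nearly equal (2099 ± 3.46, SD, n = 2), and the deletion arrays were spread more widely but all far below (1082 ± 261, SD, n = 3). The log2 change was -0.98 ± 0.19 (adjusted p = 0.00764), with a 95% interval from -1.40 to -0.56. RRN3 kept its call in 13 of 14 alternatives and lost it without the filter on dim probe sets (adjusted p = 0.174). RRN6, RRN7 and RRN11 encode the core factor that binds the promoter of the ribosomal RNA genes. RRN6 had 1427.3, 1605.3 and 1481.5 in the deletion against 1839.3 and 1257.4 in the wild type, RRN7 had 586.3, 594.1 and 674.5 against 558.7 and 862.3, and RRN11 had 610.1, 610.8 and 771.3 against 776.8 and 723.3. Their groups overlapped, none had a call (adjusted p of 0.639 to 0.972), and their log2 changes were -0.02 ± 0.18, -0.17 ± 0.22 and -0.18 ± 0.20. RRN6 turned above 0 without wild type replicate 1 (0.26), without deletion replicate 1 (0.02) and with quantile normalization (0.01). RRN7 turned above 0 without wild type replicate 2 (0.14). The 95% intervals of RRN7 and RRN11, which ran down to -0.66 and -0.61, overlapped that of RRN3, and the difference between RRN3 and these genes was not tested.

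None of the 8 TFIIIC and TFIIIB genes passed the threshold in limma (at an unadjusted p under 0.05, TFC4 alone was higher). Of the 8, 6 had a log2 change above 0, as had 2845 of all 6294 probe sets tested, and the median was 0.16. TFC6 turned below 0 with median scaling, without wild type replicate 2 and without deletion replicate 1, and TFC1 without wild type replicate 2. TFC7 turned above 0 without wild type replicate 2 or deletion replicate 2. TFIIIC recognises the internal promoters of tRNA genes. TFC4, whose protein recruits TFIIIB, had 1151.3, 916.1 and 1198.2 in the deletion against 961.8 and 646.2 in the wild type (log2 change 0.46 ± 0.21, adjusted p = 0.230). The groups overlapped, and the log2 change was 0.74 without wild type replicate 1 and 0.17 without wild type replicate 2. TFC8 had 480.5, 258.1 and 238.2 against 220.2 and 234.3 (log2 change 0.44 ± 0.35, adjusted p = 0.517). Its groups did not overlap, but deletion replicate 1 was far above the other deletion arrays, and TFC8 was the dimmest of the 35 genes. TFC3, of the subunit that binds the B box, had 710.4, 737.7 and 664.1 in the deletion against 491.4 and 692.1 in the wild type (log2 change 0.27 ± 0.21, adjusted p = 0.503, and 0.02 or 0.52 without wild type replicate 1 or 2). TFC1, of the subunit at the A box, TFC6 and TFC7 had log2 changes of 0.05 ± 0.13, 0.00 ± 0.21 and -0.06 ± 0.19, all with overlapping groups.

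TFIIIB, which brings polymerase III to the start site, consists of Brf1, Bdp1 and the TATA-binding protein. BRF1 had 1894.1, 1407.7 and 1391.0 in the deletion against 1128.4 and 1319.4 in the wild type, without overlap (log2 change 0.34 ± 0.18, adjusted p = 0.294). BDP1 had 441.5, 551.1 and 500.5 against 827.3 and 501.1, with a log2 change in the other direction (-0.38 ± 0.25, adjusted p = 0.422) that was -0.02 without wild type replicate 1 and -0.74 without wild type replicate 2. SPT15, the gene of the TATA-binding protein and no member, had a log2 change of 0.01 ± 0.12 on the probe set used. The array's control probe sets for this gene, which were not tested, were lower on every deletion array. The 3' one had 6787.9, 7595.4 and 6640.7 in the deletion against 9566.1 and 8450.5 in the wild type. The middle one had 9457, 9344.5 and 9754.6 against 11926.3 and 11003.1. The 5' one had 2611.1, 2724.4 and 2800.7 against 3545.5 and 2998.9.

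**Figure D4:**
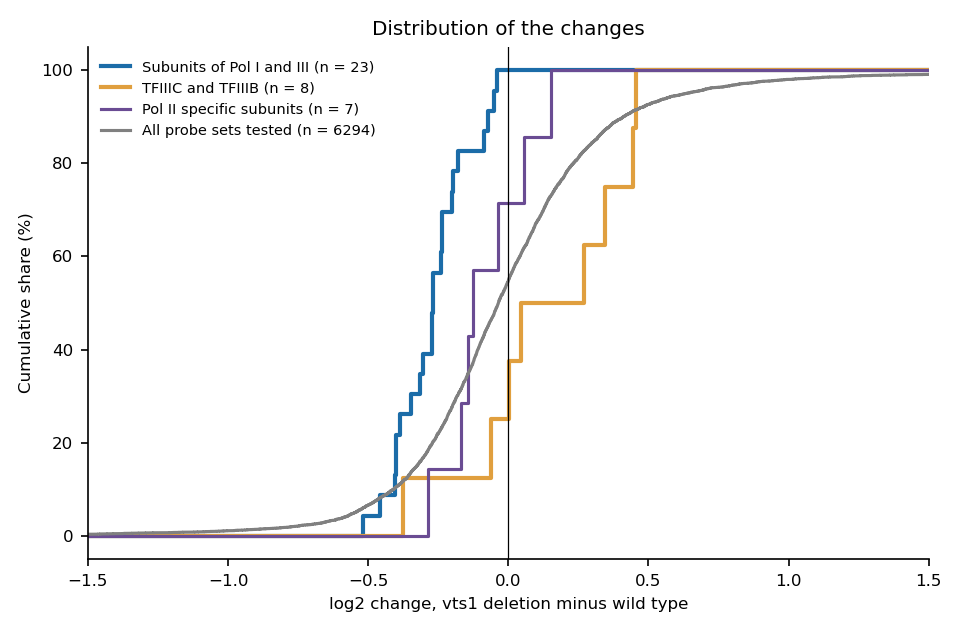
Cumulative share of genes by log2 change, deletion minus wild type, for the 23 subunits of polymerases I and III, the 8 TFIIIC and TFIIIB genes, the 7 subunits found only in polymerase II, and all 6294 probe sets tested (changes beyond the axis are counted but not drawn). The curve of the subunits lies to the left of that of all probe sets over most of its range and reaches 100% before 0, and the curve of TFIIIC and TFIIIB lies to the right over most of its range.

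The TFIIIC and TFIIIB genes were dimmer than most subunits and less precisely measured. Their mean signals ran from 286.3 to 2148, against 856.5 to 15411 for the subunits, and their median SE was 0.21, against 0.14. Over all probe sets tested, split by mean signal into 4 bins of nearly equal size, the median log2 change was -0.02, -0.02, -0.08 and -0.03 from the dimmest to the brightest bin, and the median SE was 0.27, 0.19, 0.15 and 0.13. The members in those bins, 3, 8, 11 and 13 in number, had medians of 0.00, -0.18, -0.24 and -0.27. The mix of genes changed across the bins. All 3 members in the dimmest bin were TFIIIC or TFIIIB genes, and all 13 in the brightest were subunits. Over the members, log2 change had a rank correlation (Spearman) with mean signal of -0.35. Over the subunits alone this correlation was 0.08, and over all probe sets tested 0.005. Whether the subunits differ from the TFIIIC and TFIIIB genes was not tested. The median TFIIIC and TFIIIB gene lay 0.26, 0.09 and 0.10 above its wild type mean on deletion replicates 1, 2 and 3, and the list median was 0.05 without deletion replicate 1, where TFC8 also no longer passed the filter. It was also 0.05 with all arrays under the stricter filter, which likewise leaves out TFC8.

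Some RNAs made by these polymerases have probe sets of their own. RPR1, the RNA of RNase P and a polymerase III product, had 2929.1, 2438.6 and 3004.2 in the deletion against 5142.5 and 4627.2 in the wild type, a fall of 0.81 ± 0.14 on the log2 scale (adjusted p = 0.00292). SNR6, the U6 spliceosomal RNA, had 617.1, 836.4 and 1112.6 against 1636.8 and 1049.6 (log2 change -0.66 ± 0.25, adjusted p = 0.156), with overlap. SNR52, a small nucleolar RNA, and the 3 probe sets of RDN5-1 and RDN5-3, genes of the 5S ribosomal RNA, had log2 changes between -0.13 and 0 and no call.

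For the product of polymerase I, the probe sets disagreed. Of 6 tested probe sets of RDN37-1, the precursor of the large ribosomal RNAs, 1 fell, with 20656.5, 19475.2 and 19984.5 in the deletion against 44044.5 and 36539.8 in the wild type (50.1% lower, SE 0.12 on the log2 scale, adjusted p = 0.000223). The other 5 ranged from -0.48 to 0.53 with no call, and both ends came from dim probe sets (mean signals 612.8 and 728.1). Of the brighter ones, 1 had 17685.4, 14801.6 and 14644.3 against 22636.5 and 19529.2, without overlap (log2 change -0.43 ± 0.13, adjusted p = 0.0701). Another also had no overlap, with a log2 change of -0.07 ± 0.11, and another had overlap and -0.02 ± 0.16. The brighter of 2 probe sets of RDN25-1, the mature large ribosomal RNA, had 99191.6, 87386.9 and 81826.1 against 84933.7 and 87832.1. The array's control probe sets, which were not tested, also differed among themselves. For the 18S ribosomal RNA, 1 of 5 had 1051.9, 1048.7 and 1060.5 against 2989.2 and 3617.4, lower on every deletion array, while another had 1039.4, 1319.3 and 1000.2 against 1033.8 and 1066.3. For the 25S RNA the brightest had 108560.1, 92989.6 and 88897.8 against 90693.8 and 99531.4, with overlap. These genes are repeated in the genome, and the labels do not say how the RNA was primed for labelling, so the part of RNA without a poly(A) tail in these signals is not known.

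Other genes of the same pathways were taken from lists written from textbook knowledge. Among 8 measured polymerase III factors outside the members, 1 fell, against 3.05% of all probe sets tested. This was LHP1, the yeast La protein, which binds the ends of new polymerase III transcripts. It had 3372.0, 3763.1 and 3189.2 in the deletion against 4791.5 and 4903.9 in the wild type (log2 change -0.50 ± 0.13, adjusted p = 0.0338), a call lost in 8 of 14 alternatives. MAF1, the repressor of polymerase III, had 350.9, 340.7 and 453.3 against 235.4 and 181.9 (log2 change 0.87 ± 0.29, adjusted p = 0.108), and RBS1, of polymerase III assembly, had 807.4, 1094.3 and 996.4 against 712.4 and 455.0 (log2 change 0.75 ± 0.23, adjusted p = 0.0686). Both were higher on every deletion array without passing the threshold. MAF1 passed it in 1 of 13 alternatives and RBS1 in 3 of 14, with a log2 change of RBS1 of 1.07 without wild type replicate 1 (adjusted p = 0.0192) and 0.43 without wild type replicate 2. RPB10, a subunit of all 3 polymerases outside the members, had a log2 change of -0.21 ± 0.15. None of 11 other polymerase I factors, among them HMO1, REB1 and subunits of the upstream activating factor, had a call in limma, with a median of -0.11. At an unadjusted p under 0.05, RNT1 (log2 change -0.35) and REB1 (0.41) would be counted.

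Among 16 genes that link growth signals to the polymerases, 1 rose and none fell, with a median log2 change of 0.07. Of all probe sets tested, 4.39% rose and 3.05% fell. The gene that rose was DOT6, a repressor that binds the PAC element. It had 12780.8, 11869.2 and 13374.2 in the deletion against 8413.2 and 8498.2 in the wild type. The groups lay well apart (log2 change 0.58 ± 0.11, adjusted p = 0.00770), and the call was kept in 11 of 14 alternatives. TOD6, its paralogue, had a log2 change of -0.05 ± 0.14, and SFP1, an activator of ribosome assembly genes, had one of -0.46 ± 0.20 (adjusted p = 0.213). Besides DOT6, KNS1 (log2 change 0.48), CKB1 (0.34) and KOG1 (0.34) were higher at an unadjusted p under 0.05, and SFP1 alone was lower.

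Subunits found only in polymerase II gave a comparison within the same kind of enzyme. Of 7, none had a call in limma (nor at an unadjusted p under 0.05) and 5 were below 0, against 54.8% of all probe sets tested. Their median log2 change was -0.13, against -0.27 for the 23 subunits of polymerases I and III. Those 23 include RPB5, RPB8, RPO26 and RPC10, also part of polymerase II, with a median of -0.13. Whether the lists differ was not tested. The largest subunits of polymerase II, RPO21 and RPB2, had log2 changes of 0.15 ± 0.12 and 0.06 ± 0.12, while RPB4, the stalk gene, had -0.29 ± 0.16. Of 21 genes of the small subunit processome, 1 fell (SOF1, log2 change -0.60 ± 0.15, adjusted p = 0.0322), against 3.05% of all probe sets tested. All 21 were below 0, against 54.8% of all probe sets tested, and the median was -0.29. The deletion arrays lay below both wild type arrays for 14 of the 21, against 21.7% of all probe sets tested. At an unadjusted p under 0.05, UTP15, NAN1, PWP2, UTP18, UTP21, DIP2, NOP56, MPP10 and RRP9 were also lower. Among all probe sets tested, 11.1% were lower by that rule. SOF1 lost its call in 7 of 14 alternatives, among them those without either wild type array or without deletion replicate 1 or 3, and the count for the list ran from 0 to 2. Of 25 measured 60S assembly factors, 3 fell (RRS1, NOP16 and RLP24, with log2 changes of -0.64, -0.49 and -0.47), 24 were below 0 and the median was -0.28. The shares over all probe sets tested were 3.05% that fell and 54.8% below 0. The deletion arrays lay below both wild type arrays for 19 of the 25, against 21.7% of all probe sets tested. At an unadjusted p under 0.05, NOP4, ERB1, RLP7, NOG1, SSF1, RPF1, RPF2, BRX1 and MRT4 were also lower. RRS1, NOP16 and RLP24 lost their calls in 5, 6 and 7 of 14 alternatives. None of the list fell without deletion replicate 3, with dim probe sets kept, with a constant prior variance or with the replicate block. Proteins of RNase P and RNase MRP, 11 in number, had no call in limma and a median of 0.00, and POP5 alone had an unadjusted p under 0.05 (log2 change -0.40).

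**Figure D5:**
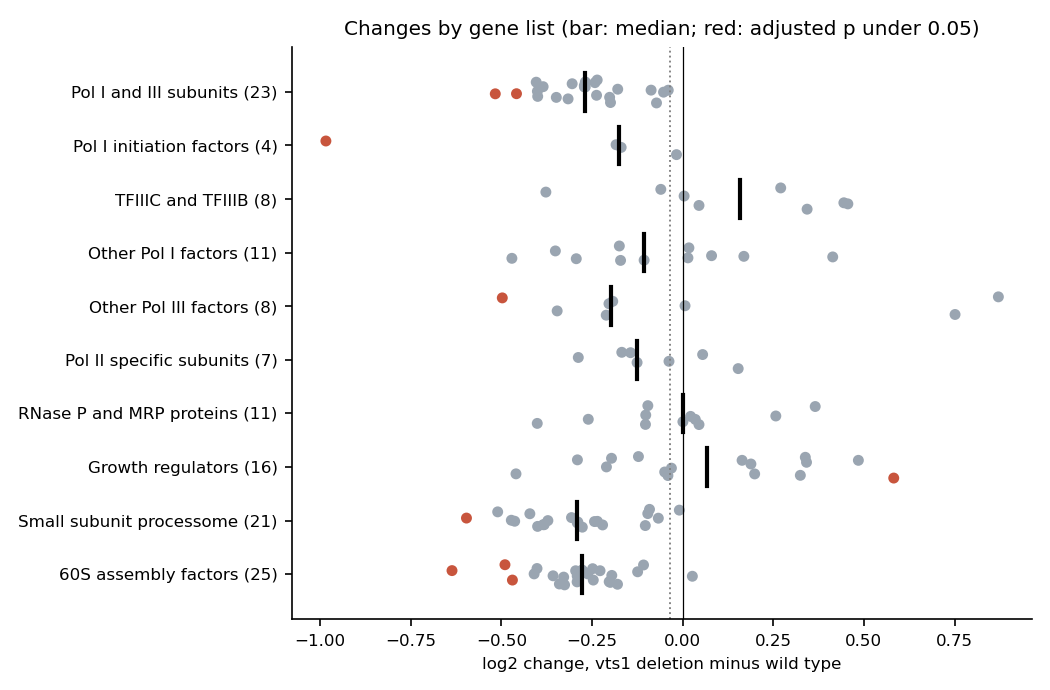
Log2 change, deletion minus wild type, of each gene by list, with the number of measured genes in brackets, the list median as a bar and genes past the adjusted p threshold of 0.05 in red (the dotted line is the median of all probe sets tested). The subunits of polymerases I and III, the small subunit processome and the 60S assembly factors have medians of -0.27, -0.29 and -0.28, left of the polymerase II subunits at -0.13 and of TFIIIC and TFIIIB at 0.16.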

How the data were processed

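The authors deposited linear signal (intensity) values, 1 for each probe set on each array. MAS5 is named in the submitters' processing notes, without version or scaling target. The arrays had been scaled by the authors before deposit, as the values show (mean signal without 2% at each end of 2502.47 to 2502.68), and were not scaled again. Of 9335 probe sets, 60 controls were left out. Signals were floored at 50.1 (that mean over 50), log2 was taken, and the 6294 probe sets with a mean of at least 250.3 (that mean over 10) were tested with limma 3.58.1 in R 4.3.3 (lmFit, eBayes with trend, group as the only term, residual degrees of freedom 3, prior 9.02), two-sided, with Benjamini-Hochberg adjustment over all of them and a threshold of 0.05. Errors are SEs of the fit unless given as SD. Background is the 95th percentile of 28 controls with no target in yeast. Where all arrays of a group lie below it, the fold is a bound against the higher of background and signal. The number of arrays limits the precision.

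Gene names are those of the platform annotation, and all 6504 single-gene identifiers were found in the reference table (assembly R64). The members and lists were chosen with earlier results of these data known. Named were all members, VTS1 and up to 4 called genes with the smallest p of each list. The products of the polymerases were added later. MAF1, RBS1, RPB10, SPT15, RNT1, REB1, HMO1, TOD6, SFP1, RPO21, RPB2, RPB4 and POP5 were named after their values were seen. So were the other genes outside the members that are named only for an unadjusted p under 0.05. The list genes UAF30 and PZF1 were too dim to be tested and MDN1 had no probe set of its own. On simulated arrays (20 runs, 6294 probe sets, 200 changed), this test recovered 29.0% of 1.5-fold, 75.8% of 2-fold and 97.3% of 4-fold changes. A planned search of promoters for motifs was not run, as no sequence was used here. Alternatives were other scalings, floors, filters and variance models, a block on the replicate number, the dimmest probe set per gene and each array left out.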

Additional observations from a re-analysis of the deposited data

How the results depend on the processing

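The count of 3 genes that fell stayed at 3 with median scaling, other floors, a stricter filter, robust variances and the dimmest probe set per gene. It was 2 with quantile normalization. It was 1 with a constant prior variance (RRN3) and 1 when dim probe sets were kept, where RPC53 alone passed and RRN3, RPO31 and RPA43 did not. With single arrays left out, 1 to 3 fell. Without wild type replicate 1 they were RRN3, RPA49 and RPA12. None rose in any alternative. Subunits below 0 numbered 20 to 23 with arrays left out and 23 in every other alternative. The median of the members ran from -0.33 (without wild type replicate 1) to -0.18 (without deletion replicate 1) over the arrays left out. Over all probe sets, 51 fell and 54 rose with dim probe sets kept, and 106 fell with a constant prior variance. With arrays left out, 94 to 161 fell and 176 to 320 rose. The labels number arrays in both groups but do not say that a number marks a pair. Replicate 1 minus replicate 2 correlated at -0.08 between groups over the probe sets tested, so the numbers are not taken as pairs. With the replicate block, which leaves deletion replicate 3 out of the contrast, 1 member fell (RRN3), and 69 probe sets fell and 149 rose. Calls of RPO31 were lost in 6 of 14 alternatives. Dimmer genes, TFIIIC and TFIIIB above all, have wider intervals. On the simulated arrays most 1.5-fold changes were missed (29.0% recovered), and smaller changes were not simulated.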
